A study of Sus scrofa with 21 samples.

Results

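The enzymes that build heme were examined in whole blood of 2 pig breeds. The set was fixed as 8 genes in pathway order (ALAS1, ALAS2, ALAD, UROS, UROD, CPOX, PPOX and FECH), and a probe belonged to it when the gene name in the scanner files was 1 of these, ignoring letter case. In this way 11 of the 60305 non-control probes of the array were found, for 6 of the 8 genes. No probe of that name was found for ALAS1 or FECH, so the first step outside red cells and the last step of the pathway were not analysed here.

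RNA came from 10 SLAdd (DD) pigs and 11 Large White (LW) controls, all 60 days old and fed a standard diet without restriction. DD pigs are inbred minipigs that carry 1 haplotype of the SLA, the major histocompatibility complex of the pig, so a DD to LW difference is one between 2 lines and cannot be assigned to the SLA locus. The DD pigs came from 5 litters and the LW pigs from 6 litters. Each pig had 1 one-colour Agilent array, and every one of the 3 chips carried both breeds, 3 DD with 4 LW, 4 with 4, and 3 with 3. The values are the log2 intensities that the authors deposited after quantile normalization, so a difference of 1 is a doubling of signal, and levels of different probes cannot be set against each other.

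Heme is the iron-bearing ring that carries oxygen in hemoglobin. Most of it is made in red cell precursors in the bone marrow, and the youngest red cells that reach the blood still hold some RNA of the pathway. ALAS1 and ALAS2 catalyse the first step, ALAS1 in all tissues and ALAS2 in the red cell lineage. ALAD acts on their product, UROS closes the ring, UROD and CPOX trim its side chains, PPOX oxidizes it and FECH inserts the iron.

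The probes are the only link between a signal and a gene here, so the sequences of 6 of them are given, at least 1 for each of 5 members. They are printed 5′ to 3′ as in the scanner files, each is 60 bases long, and capitals are not used since no part is singled out.
ALAS2 O895: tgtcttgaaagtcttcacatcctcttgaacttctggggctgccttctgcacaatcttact
ALAD O12960: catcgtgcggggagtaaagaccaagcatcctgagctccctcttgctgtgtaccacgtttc
UROS O10583: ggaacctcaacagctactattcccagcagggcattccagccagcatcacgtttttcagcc
UROS A_72_P330863: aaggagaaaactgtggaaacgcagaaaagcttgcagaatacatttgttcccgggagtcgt
CPOX O6684: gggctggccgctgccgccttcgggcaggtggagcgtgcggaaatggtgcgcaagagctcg
PPOX O14542: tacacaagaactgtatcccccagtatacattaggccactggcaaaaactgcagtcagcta
ALAS2, ALAD, UROD and PPOX had 1 probe each, UROS had 5 and CPOX had 2. Of the 5 UROS probes, A_72_P659478 has the same sequence as A_72_P330863, and A_72_P393553 has the same sequence as A_72_P490689, so the 11 probes are 9 sequences. The CPOX probes differ in base composition, with a GC content of 71.7% in O6684 and 35.0% in A_72_P241927. The letters of O895 run opposite to the coding strand of ALAS2 as it is known from mammals. The probes could not be set against a pig genome here, so which RNA gave the signal of O895 was not tested. All 11 member probes were well above background on all 21 arrays. Precision is limited by how many arrays there are.

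The genes lie on different chromosomes of Sscrofa11.1 (RefSeq). ALAS2 is on chromosome X from 47871519 to 47896041, ALAD on chromosome 1 from 254015426 to 254027584, UROS on chromosome 14 from 135101609 to 135131082, and UROD on chromosome 6 from 166327243 to 166330558. CPOX is on chromosome 13 from 160332436 to 160345862 and PPOX on chromosome 4 from 89277984 to 89288946.

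Of the 6 members tested, ALAS2 and UROD were higher in DD pigs and none was lower, with limma adjusted p-values below 0.05. Without adjustment these 2 were also the only ones with a p below 0.05. Over all 33326 gene names tested, 11.5% were higher and 9.63% lower in DD pigs by the same rule. The median log2 difference was 0.11 over the 6 members, with 3 positive and 3 negative values, and −0.04 over all genes tested. In whole blood, a lower share of cells of a type and less RNA per cell cannot be told apart.

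ALAS2, the red cell form of the enzyme that sets the pace of the pathway, ranged from 9.32 to 11.89 in DD pigs with a median of 10.99, and from 9.30 to 11.04 in LW pigs with a median of 10.11. The breeds overlapped, but 4 of 10 DD pigs were above all LW pigs and 9 were above the LW median. DD pigs averaged 10.88 ± 0.76 (SD, n = 10) and LW pigs 10.11 ± 0.54 (SD, n = 11). After the chip was taken into account, the log2 difference was 0.75, a fold of 1.68 (SE 0.25, 95% interval 0.23 to 1.27, limma adjusted p = 0.0375). With the sow as a block, the consensus correlation between siblings was −0.11. The adjusted p was 0.0549 without that block, 0.0600 without the filter on dim probes, 0.0602 over litter means and 0.0810 without the chip term. The chips and the brightness of the arrays, which also ended the call, are treated after the members. When each pig was left out in turn, the difference ranged from 0.64 to 0.95 and the call was lost in 13 of 21 fits, with an adjusted p of up to 0.0808. Those were the fits without DD_01, DD_10, DD_16, DD_19, DD_21, DD_23, LW_05, LW_09, LW_12, LW_14, LW_18, LW_22 or LW_24.

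UROD, the decarboxylase that yields coproporphyrinogen, had the largest difference of the 6 members. Its values ran from 7.37 to 11.69 in DD pigs, with a median of 8.74, and from 6.87 to 9.54 in LW pigs, with a median of 8.11. The 3 DD pigs above all LW pigs were the 3 on chip 3, with 10.64, 10.76 and 11.69, where the LW pigs had 8.97, 9.00 and 9.17. On the other chips the breeds overlapped, and LW_07 on chip 1 had 9.54. The log2 difference was 0.93, a fold of 1.91 (SE 0.28, 95% interval 0.34 to 1.52, limma adjusted p = 0.0284). With each pig left out it ranged from 0.79 to 1.13, and the call was lost in 8 of 21 fits, namely those without DD_10, DD_21, DD_23, LW_05, LW_12, LW_18, LW_22 or LW_24, with an adjusted p of up to 0.0634. The call was also lost without the chip term (0.96, adjusted p = 0.175), without chip 2 (0.90, adjusted p = 0.0827) and without chip 3 (0.50, adjusted p = 0.561), and it turned to −0.08 when the brightness of the arrays was fitted too (adjusted p = 0.966).

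**Figure D1:**
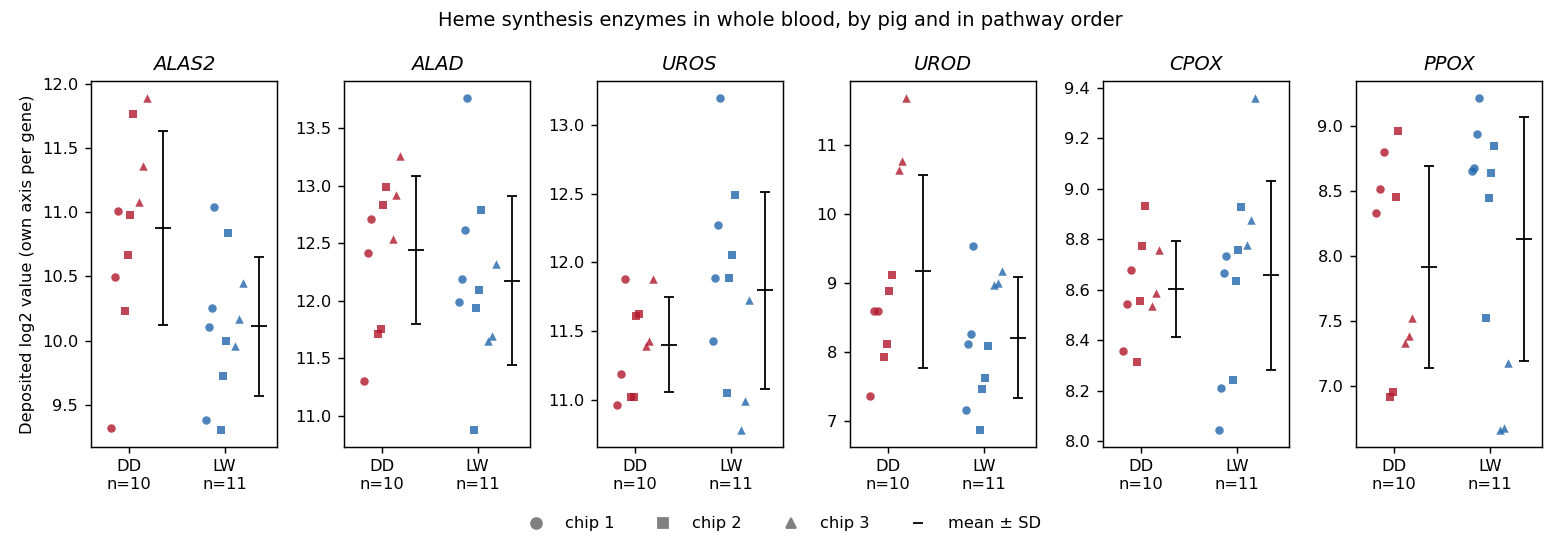
Deposited log2 value of each enzyme (vertical axis, one scale per panel) in each of the 10 DD and 11 LW pigs, with a circle, square or triangle for chip 1, 2 or 3 and the mean ± SD in black. ALAS2 and UROD sit higher in DD pigs with overlap between the breeds, the 3 highest UROD values are the DD pigs on chip 3, and the PPOX values of LW pigs on chip 3 lie below those of the other LW pigs. Low PPOX values also occur in DD pigs on chips 2 and 3.

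The other members did not pass the threshold. ALAD ranged from 11.30 to 13.26 in DD pigs and from 10.88 to 13.77 in LW pigs, with medians of 12.62 and 12.10. Its log2 difference was 0.29 (95% interval −0.29 to 0.86, limma adjusted p = 0.470), an interval that includes no difference and a rise of the size seen for ALAS2.

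UROS, averaged over its 5 probes, was 10.96 to 11.88 in DD pigs and 10.78 to 13.20 in LW pigs, with medians of 11.41 and 11.89. None of the 10 DD pigs was above the LW median before chip adjustment, but DD_21 and DD_08, both at 11.88, lay just under it. The chip-adjusted difference of −0.37 had a 95% interval of −0.84 to 0.09 (limma adjusted p = 0.232). Each of the 5 probes had a negative difference, from −0.24 for O10583 to −0.45 for A_72_P393553. Across the 21 arrays, after breed and chip were taken out, O10583 followed the identical pair A_72_P330863 and A_72_P659478 with r = 0.99 and 0.98, and the other identical pair only with r = 0.68 and 0.67. LW_07 had the highest UROS value of all pigs.

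CPOX, which trims the ring after UROD, averaged 8.60 ± 0.19 (SD, n = 10) among DD and 8.66 ± 0.37 (SD, n = 11) among LW animals, with a log2 difference of −0.08 (95% interval −0.32 to 0.17, limma adjusted p = 0.672). That mean joins 2 probes which moved in opposite directions. O6684 was higher in DD pigs, at 7.78 to 8.50 against 6.74 to 8.20 in LW pigs, and 5 DD pigs were above all LW pigs. A_72_P241927 was lower in DD pigs, at 8.25 to 9.76 against 8.59 to 10.98, and 3 DD pigs were below all LW pigs. In the limma fit over the 45228 probes kept, the log2 difference was 0.45 for O6684 (SE 0.16, adjusted p = 0.0427) and −0.61 for A_72_P241927 (SE 0.21, adjusted p = 0.0475). Of all probes, 11% were higher and 10.7% lower in DD pigs by that rule. The step from A_72_P241927 to O6684 within an array averaged −0.77 ± 0.76 (SD, n = 10) among DD and −1.80 ± 0.78 (SD, n = 11) among LW animals, a comparison chosen after the probe values were seen. Over the 11 litter means, with the chip effect removed, the breeds differed by 1.08 in this step, given without a test for that reason. After breed and chip were taken out, the 2 probes correlated with r = −0.35 across the 21 arrays. The CPOX difference had opposite signs in the 2 probes, and which RNA each probe measured was not tested.

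PPOX, the enzyme that gives the finished protoporphyrin ring, was 6.91 to 8.96 in DD pigs and 6.66 to 9.22 in LW pigs, with medians of 7.93 and 8.63. Its log2 difference was −0.15 (95% interval −0.61 to 0.32, limma adjusted p = 0.665). The 3 LW pigs on chip 3 had 6.66, 6.68 and 7.18, and those on chips 1 and 2 had 7.52 to 9.22. Low values were not limited to that breed or chip. DD_13 and DD_16 on chip 2 had 6.91 and 6.96, and the DD pigs on chip 3 had 7.33 to 7.52. The remaining DD pigs had 8.33 to 8.96. Among further probes that only their description ties to a gene, those for PPOX gave −0.27 (A_72_P227067), −0.10 (A_72_P554326) and 0.65 (A_72_P657702, limma adjusted p = 0.0590), and those for UROS gave 0.02 (A_72_P008396) and −0.16 (A_72_P078781). None of these 5 passed the threshold.

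**Figure D2:**
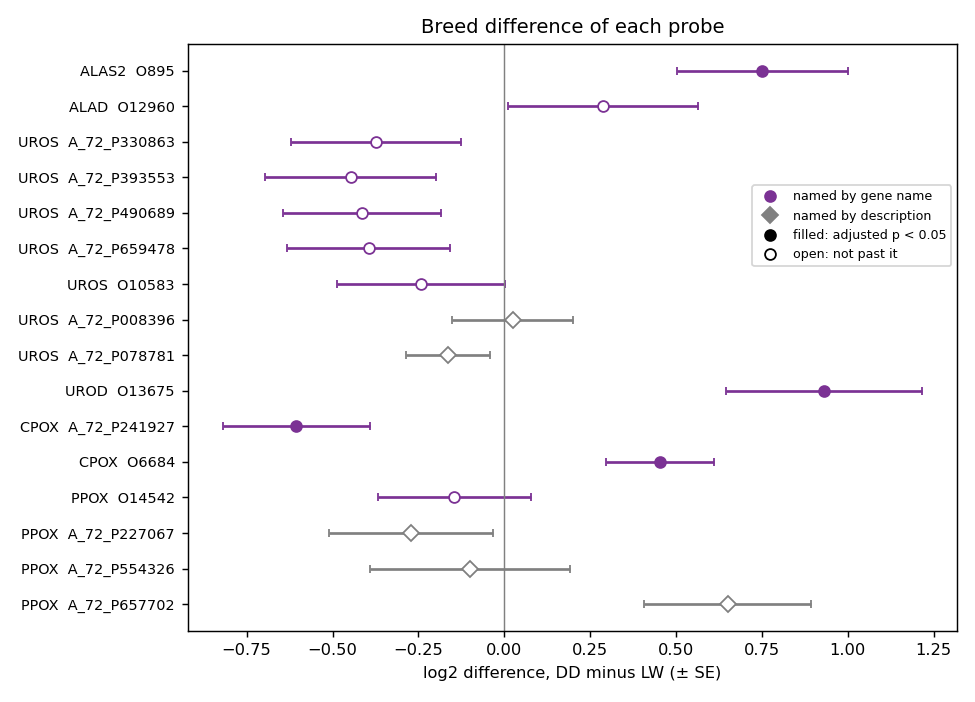
Log2 difference between DD and LW pigs (horizontal axis, ± SE) for each probe of the enzymes, with circles for probes named by the gene name, diamonds for those named by the description, and filled symbols for an adjusted p below 0.05. The 2 CPOX probes lie on opposite sides of 0, at 0.45 and −0.61, while the 5 UROS probes named by the gene name all lie below it.

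The breed differences were compared between chips, since both breeds were on each chip. Taking chips 1 to 3 in order, the ALAS2 means differed by 0.08, 0.94 and 1.25. UROD gave −0.08, 1.00 and 1.98, and ALAD gave −0.50, 0.40 and 1.02. UROS gave −0.85, −0.55 and 0.40, CPOX gave 0.11, 0.002 and −0.38, and PPOX gave −0.32, −0.54 and 0.57. The step between the CPOX probes differed between breeds by 0.27, 1.00 and 2.04. A breed by chip interaction fitted in limma over all genes called 0% of the 33326 genes after adjustment, whereas 4989 had an unadjusted p below 0.05. That is more genes than this threshold gives on average when no gene has an interaction. The 0% therefore does not show that there was none. UROD had p = 0.0175 before adjustment (adjusted p = 0.326), and the other 5 members had p-values from 0.0819 for UROS to 0.262 for CPOX. Leaving out chip 3 ended both member calls, with an ALAS2 difference of 0.56 (limma adjusted p = 0.513) beside the loss given for UROD. For that same chip the paper's quality checks reported a technical bias, which its authors treated as a chip effect in their model. Arrays they removed as outliers are not among those analysed here. The part of that bias in the breed differences was not tested. Over all genes, 222 were higher and 285 lower without that chip, against 3821 and 3209 with it. Without chip 1 the differences grew to 1.10 for ALAS2 (adjusted p = 0.00638) and 1.43 for UROD (adjusted p = 0.00251), and without chip 2 the ALAS2 difference was 0.58 (adjusted p = 0.140).

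**Figure D3:**
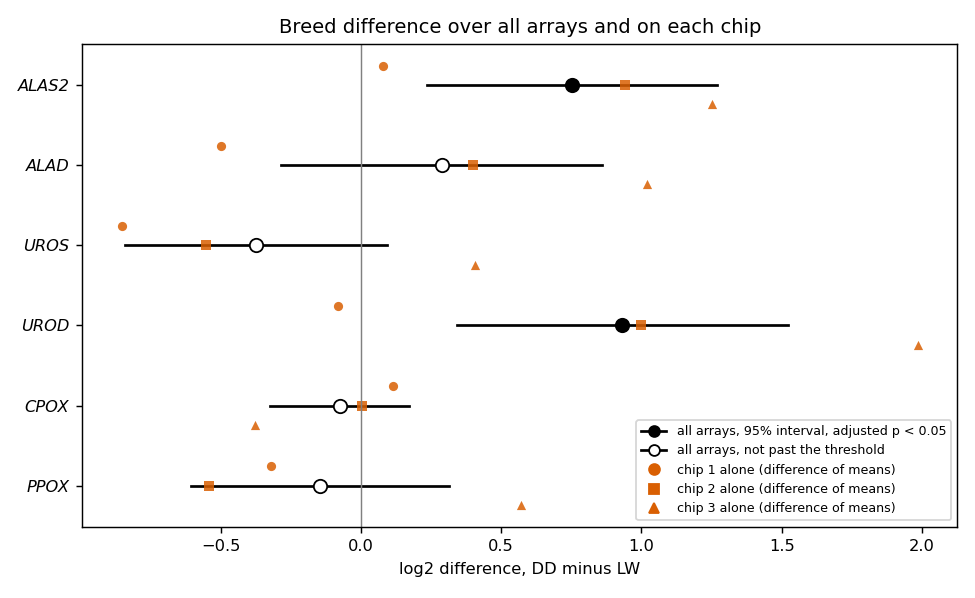
Log2 difference between DD and LW pigs (horizontal axis) for each enzyme, in black over all 21 arrays with its 95% interval, filled where the adjusted p is below 0.05, and in orange as the difference of means on each chip. The ALAS2 and UROD differences are near 0 on chip 1 (0.08 and −0.08) and largest on chip 3 (1.25 and 1.98).

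The brightness of the arrays followed the same chips. Brightness, the 75th percentile of an array's processed signal before normalization on the log2 scale, was 6.56 to 8.49 on DD arrays and 7.37 to 8.62 on LW arrays, with medians of 7.64 and 8.41. From chip 1 to chip 3, DD arrays averaged 7.95, 7.55 and 7.09 and LW arrays 8.02, 8.31 and 8.36. DD_06, the brightest DD array, had the lowest DD value of ALAS2, ALAD, UROS and UROD. DD_21, the dimmest array of all, had the highest DD value of ALAS2, ALAD, UROS and UROD. LW_07, the dimmest LW array at 7.37, had the highest LW value of these 4 genes and of PPOX. With brightness as a further covariate in limma, no member passed the threshold. The ALAS2 difference became −0.04 (adjusted p = 0.993), with the opposite sign like that of UROD. In that fit 315 genes were higher and 398 lower over the whole array.

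Red cell transcripts moved along with the members. A score over the 18 tested red cell markers, the mean of their log2 values without the members and globins, was 8.63 to 9.70 in DD pigs with a median of 9.17, and 8.36 to 9.52 in LW pigs with a median of 8.62. DD pigs averaged 9.09, 9.01 and 9.47 in it on chips 1, 2 and 3, and LW pigs averaged 8.78, 8.74 and 8.71. Over the 11 litter means, with the chip effect and the breed means removed, 4 members rose and fell with this score. Pearson's r was 0.79 for ALAS2 (exact permutation within breeds, p = 0.0114, adjusted over 6 members 0.0170), 0.79 for ALAD (adjusted permutation p = 0.0170), 0.81 for UROS (adjusted permutation p = 0.00785) and 0.87 for UROD (adjusted permutation p = 0.00785). Spearman's rho was 0.71, 0.69, 0.77 and 0.83 for these genes, with adjusted permutation p-values of 0.0503, 0.0523, 0.0273 and 0.0273, so that the ranks of ALAS2 and ALAD did not pass the threshold. CPOX had r = −0.28 and rho = −0.43, and PPOX r = −0.05 and rho = −0.10, with adjusted permutation p-values of 0.248 or more. Without the 2 litters farthest from the median score, r was 0.85, 0.88, 0.81 and 0.88 for ALAS2, ALAD, UROS and UROD. Over the 6 LW litters alone it was 0.79, 0.81, 0.77 and 0.82, with an adjusted permutation p of 0.0958 for each.

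The same litter means fell as brightness rose. Pearson's r with brightness was −0.83 for ALAS2, −0.77 for ALAD, −0.67 for UROS and −0.89 for UROD, with adjusted permutation p-values of 0.0268, 0.0268, 0.0312 and 0.0185. Spearman's rho was −0.75, −0.70, −0.61 and −0.88, with adjusted permutation p-values of 0.0332, 0.0439, 0.0679 and 0.00778. CPOX went the other way, with r = 0.47 (adjusted permutation p = 0.113) and rho = 0.75 (adjusted permutation p = 0.0332), and PPOX had r = −0.15 and rho = −0.40. When the 2 litters with the most extreme brightness were dropped, r came to −0.83, −0.74, −0.66 and −0.87 for the 4 genes, and its adjusted permutation p-values, 0.0653 to 0.0899, no longer passed the threshold. In the same litters rho was −0.88 for ALAS2 and −0.90 for UROD, both still past the threshold (adjusted permutation p = 0.0229 for each), and −0.78 for ALAD and −0.77 for UROS (adjusted permutation p = 0.0503 for each). Over the 6 LW litters r was −0.69, −0.66, −0.61 and −0.79, with adjusted permutation p-values of 0.294 to 0.296, and rho was −0.89, −0.89, −0.77 and −0.94, with adjusted permutation p-values of 0.0667 to 0.154. The red cell score itself had r = −0.83 and rho = −0.78 with brightness (exact permutation p = 0.00635 and 0.0101), so the share of either in the breed differences was not tested.

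**Figure D4:**
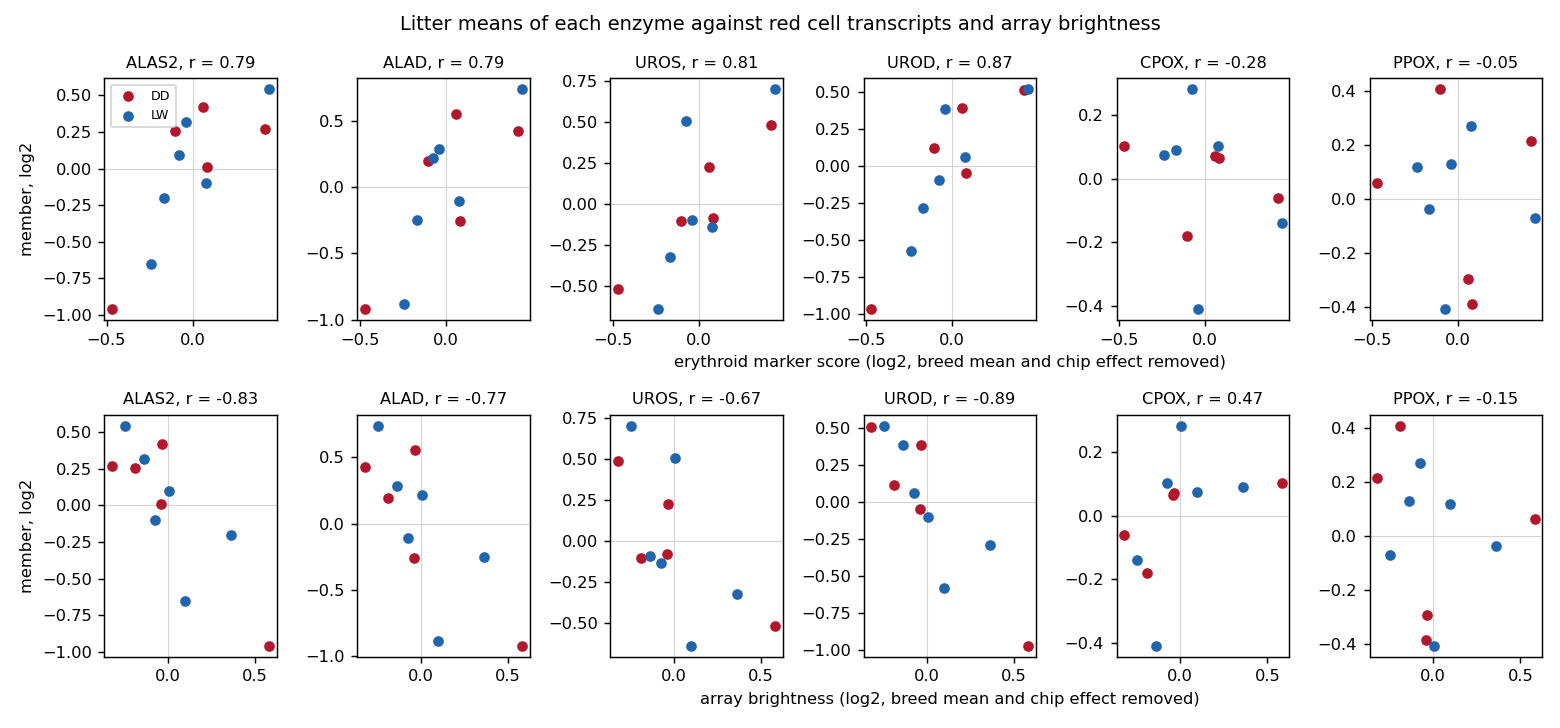
Litter means of each enzyme (vertical axis, log2) against the red cell marker score (upper row) and the array brightness (lower row), both log2, with chip effect and breed mean removed, for 5 DD and 6 LW litters. ALAS2, ALAD, UROS and UROD rise with the score (r = 0.79 to 0.87) and fall with brightness (r = −0.67 to −0.89), while CPOX and PPOX have r = −0.28 and −0.05 with the score and 0.47 and −0.15 with brightness.

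The members differed in how they varied with each other. After breed and chip were taken out, ALAS2, ALAD, UROS and UROD correlated with each other across the 21 arrays with r from 0.67 (ALAS2 with UROS) to 0.92 (ALAD with UROD). CPOX had r of −0.23 to −0.38 with these 4, and PPOX −0.10 to 0.23. CPOX and PPOX had r = −0.55 with each other. These values describe arrays that share chips and normalization and carry no test.

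The genes that move heme and its precursors, a list of 16 with 14 tested, had 5 members higher in DD pigs and 1 lower, against 11.5% and 9.63% of all genes, and a median difference of 0.22 on the log2 scale. SLC25A38, the mitochondrial carrier that feeds glycine to the first step, was higher by 0.82 (SE 0.12, limma adjusted p = 0.000144). SLC25A37 (mitoferrin), which brings iron into the mitochondria of red cell precursors, was higher by 0.90 (SE 0.20, adjusted p = 0.00572). TMEM14C, which helps the porphyrin reach the inner mitochondrial compartment, was higher by 0.37 (adjusted p = 0.0221). PGRMC1, a heme-binding membrane protein, was lower, at −0.62 (adjusted p = 0.00184). Of the 10 genes tested for iron-sulfur cluster assembly and iron sensing, ISCA2 was higher by 0.26 (adjusted p = 0.0443), and FDXR and HSCB were lower, at −0.45 (adjusted p = 0.00780) and −0.46 (adjusted p = 0.0183). IREB2 (iron regulatory protein 2) gave −0.26 (adjusted p = 0.0810) and ACO1 (iron regulatory protein 1) gave 0.09 (adjusted p = 0.565). The median of the list was 0.03. These counts of 1 and 2 among 10 lie near the shares over all genes. Of the 4 genes of heme breakdown, HMOX1, the inducible heme oxygenase, was lower, at −0.54 (SE 0.16, adjusted p = 0.0260), whereas HMOX2, BLVRA and BLVRB gave 0.23, 0.20 and 0.18 with adjusted p-values of 0.251 to 0.595. A list of 4 genes with 1 lower is too short to set against the 9.63% of all genes.

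Both globins tested, of 8 listed, had positive differences that did not pass the threshold, 0.31 for HBB (limma adjusted p = 0.268) and 0.44 for HBE1 (adjusted p = 0.224). HBB had chip-corrected means of 17.60 in DD and 17.30 in LW pigs. Over all genes tested, 11.5% were higher and 9.63% lower in DD pigs. Of the 18 red cell markers tested, 7 were higher in DD pigs and none was lower, with a median of 0.34. They included ANK1 and EPB42 of the membrane skeleton, at 1.18 (SE 0.24, adjusted p = 0.00347) and 1.06 (SE 0.29, adjusted p = 0.0200), and the transcription factors GATA1 and NFE2, at 0.40 (adjusted p = 0.0251) and 0.50 (adjusted p = 0.0264). AHSP, the chaperone of free alpha globin, gave −0.27 (adjusted p = 0.459). Without chip 3 the median over these markers was 0.17, and with brightness as a covariate it was 0.08.

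**Figure D5:**
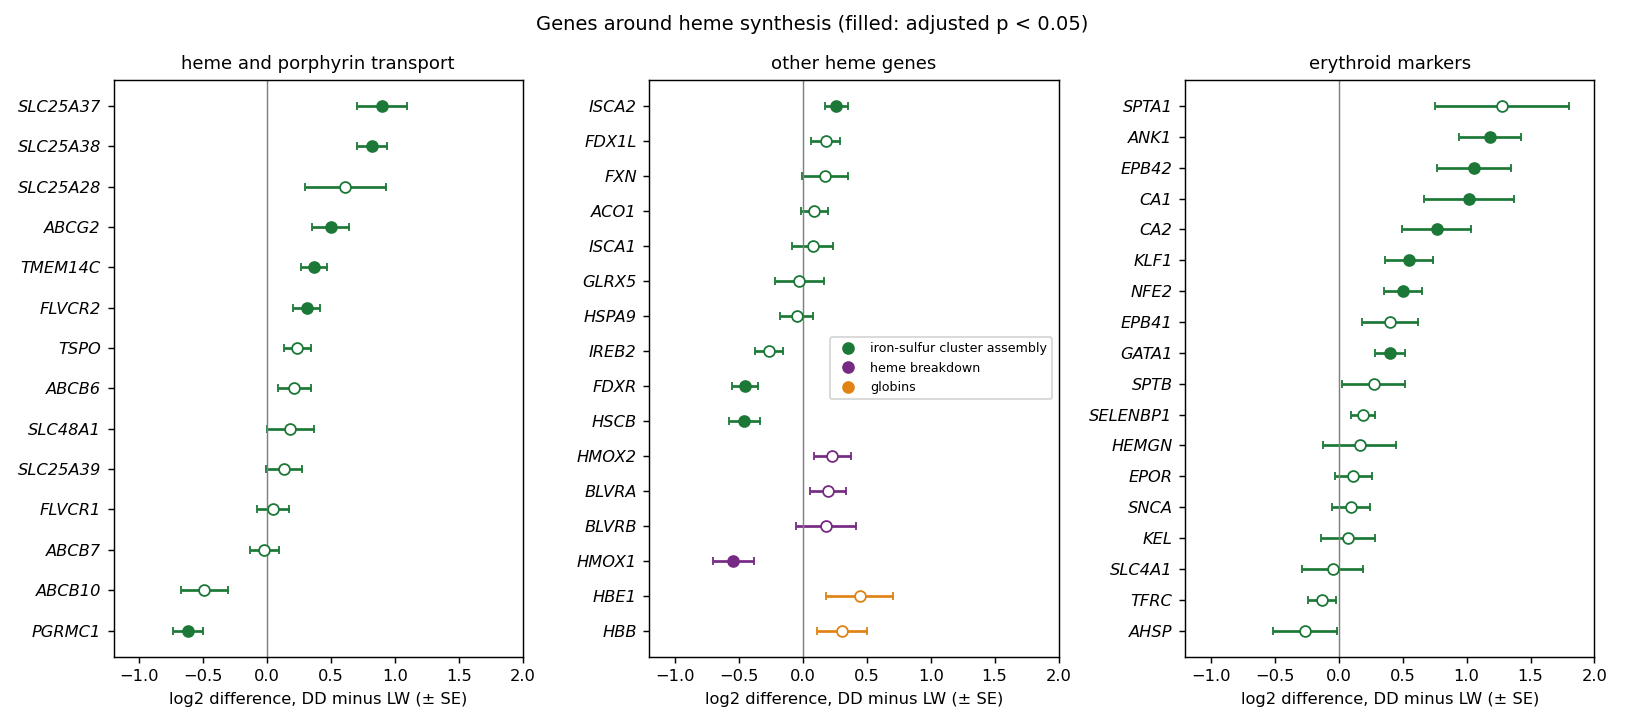
Log2 difference between DD and LW pigs (horizontal axis, ± SE) for genes of heme and porphyrin transport (left), iron-sulfur cluster assembly, heme breakdown and globins (middle), and red cell markers (right), filled where the adjusted p is below 0.05. SLC25A37 and SLC25A38 lead the transport genes at 0.90 and 0.82, HMOX1 is lower at −0.54, and 7 of 18 red cell markers are filled on the positive side. Of all genes tested, 11.5% were higher and 9.63% lower in DD pigs.

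Markers of the other blood cells were tested for the same comparison. Of all genes tested, 11.5% were higher and 9.63% lower in DD pigs, and lists of 4 to 6 markers are too short to set against these shares. For T cells 2 of 6 were lower in DD pigs, CD3G at −0.64 (limma adjusted p = 0.00504) and CD3D at −0.58 (adjusted p = 0.0145). For platelets PPBP was lower at −0.94 (adjusted p = 0.0410) among 4 tested, against a list median of −0.31. For monocytes CD163 was lower at −0.72 (adjusted p = 0.0230), while the other 5 markers had positive differences that did not pass the threshold, the largest 0.63 for CSF1R (adjusted p = 0.0505), and the list median was 0.11. All 6 T cell differences were negative, with a median of −0.29. None of 5 B cell or 5 granulocyte markers passed the threshold. The score ranges overlapped for each list, with 8.68 to 9.93 in DD and 9.06 to 10.11 in LW pigs for T cells, 9.32 to 10.99 and 9.91 to 11.36 for platelets, and 6.72 to 8.31 and 7.12 to 8.02 for monocytes, and the part of these cells in the member values was not tested.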

How the data were processed

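Whole blood RNA of 21 pigs was hybridized to one-colour arrays. The scanner files hold the intensity of each spot as deposited, made by the authors with Agilent Feature Extraction 10.7.3.1 and not normalized between arrays. The log2 values analysed are the matrix the authors deposited once background had been corrected (normexp) and arrays quantile normalized. From the scanner files the gene name, description and sequence of each probe, the processed signal (for brightness), the mean and background signals (for alternatives) and the flags for saturation and for a signal well above background, deposited as 0 or 1, were used. No spot was flagged as saturated (0 on each array).

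Controls and the 25% of probes with the lowest mean were removed, and kept probes of 1 gene name were averaged, leaving 33326 names, many of which are transcript identifiers and not gene symbols. Breed and chip were fixed effects and the sow a random block (duplicateCorrelation) in limma, after the study's methods, with eBayes, and p-values were Benjamini-Hochberg adjusted across the 33326. Groups came from the breed in the labels, sows and chips from the study's animal list. Relations across litters used exact permutations within breeds (86400 in all, 720 for the LW litters). The named genes are all members, up to 4 genes per context list with the smallest adjusted p (AHSP was added after its value was seen, as were the interaction fit and the comparison of the CPOX probes), and the 3 genes most like each member. The members and lists were chosen with earlier results of these data known. The planned ratio of ALAS2 to ALAS1 could not be formed, since no probe carried the name ALAS1. Some items are not reported here. The steps were tested on simulated data. Tools were R 4.3.3 with limma 3.58.1, and Python with scipy and matplotlib.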

Additional observations from a re-analysis of the deposited data

How the results depend on the processing

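The count of members higher in DD pigs was 2. It stayed 2 with values recomputed from the scanner signals at both normexp offsets (0 and 50), with scaling to the 75th percentile, with the filter on 10 arrays well above background, with the probe of the highest mean, with wider gene naming, with trend and robust fitting, and without chip 1. It was 1 without the filter on dim probes, without the sow block and over litter means, where UROD remained and ALAS2 did not, with ALAS2 adjusted p-values of 0.0600, 0.0549 and 0.0602. It was 0 without the chip term, with array brightness as a covariate, without chip 2 and without chip 3. With each pig left out it ranged from 0 to 2, at 0 in 8 fits, 1 in 5 and 2 in 8. The count of members lower in DD pigs was 0 under these settings and with each pig left out (0 to 0), except with the probe of the highest mean, where it was 1, CPOX at −0.61 (limma adjusted p = 0.0448). With brightness as a covariate the signs turned for ALAS2 (−0.041) and UROD (−0.082), and the cause was not tested. Scaling to the 75th percentile, which moved the median of all genes from −0.04 to 0.06 and gave 4770 genes higher and 2112 lower against 3821 and 3209, left ALAS2 at 0.84 and UROD at 0.99. ALAD, UROS and PPOX passed the threshold under no setting. Other signs turned only in values that were not called, for ALAD, CPOX and PPOX. The 10 alternatives for the ratio of ALAS2 to ALAS1 were not run, for want of an ALAS1 probe. No paired analysis was possible because the breeds share no replicate numbers. The number of arrays, 21, limits the precision.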

Other observations

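For each enzyme the 3 genes that varied most like it were sought over the 21 arrays, after breed and chip were taken out, among all genes tested. For ALAS2 the most alike with a gene symbol was CDC42EP1 (r = 0.98), for ALAD MTF1 and ANXA10 (both r = 0.96), for UROS FBXW4 (r = 0.91) and PNPLA2 (r = 0.91), and for CPOX HDAC2 (r = 0.86). For UROD the 3 most alike, with r = 0.99 each, and for PPOX, with r = 0.93 each, were transcripts without a gene symbol. These likenesses describe 21 arrays that share chips, normalization and the differences in brightness given above, and they carry no test.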
